A study of Mus musculus with 12 samples.

Results

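The scavenger receptors and apoptotic cell uptake genes Msr1, Marco, Scarb1, Cd163, Cd68, Stab1, Mertk, Axl, Gas6 and Mfge8 were followed in mouse macrophages across 4 groups of 3 Affymetrix expression arrays. The genes were chosen by symbol, and every probe set annotated to exactly 1 of these symbols was used. All 10 genes were represented, by 16 of the 20380 single-gene probe sets, and they are 10 of the 12393 genes tested. Estradiol RAW264.7 cells were cultured overnight with estradiol at 1 ug/mL, and unstimulated RAW264.7 cells are their comparison. RAW264.7 is an established mouse macrophage-like line. Pregnant and control groups are macrophages washed from mouse lungs by bronchoalveolar lavage (BAL) and taken directly to RNA extraction. The series design text gives the untreated cultures vehicle, which the labels do not name, and the estradiol treatment text stands on the labels of every sample, so only the group label was used to assign samples. No mutation or transgene is named for any group, and the labels give no strain, age, sex, pregnancy stage, sorting or pooling of the animals. Nothing says whether replicates were separate cultures or animals, so the p-values cover only the spread of these samples, and that spread may be technical.

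Scavenger receptors bind modified lipoproteins, microbes and cell debris, and macrophages use them to clear such particles. Apoptotic cells display phosphatidylserine, which bridging proteins such as Gas6, protein S and Mfge8 bind on one side while binding a macrophage receptor on the other. Gas6 bridges to the TAM receptor kinases Tyro3, Axl and Mertk, protein S to Tyro3 and Mertk, and Mfge8 bridges to alpha v integrins. In the lung, resident alveolar macrophages remove inhaled particles, surfactant and dying cells, and MARCO and the TAM receptors are known parts of that work.

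Levels are given as log2(intensity + 1), and a difference of 1 is a doubling. Array medians ran from 369 to 393 in intensity, and the number of arrays limits the precision. A gene is called dim in a comparison when it exceeded its array's 40th percentile, a log2 level of 6.98 to 7.14, on fewer than 3 of the arrays compared. Pan-macrophage markers were present in both sources, with 7 of 8 above that percentile on all lavage arrays and 8 of 8 on all RAW264.7 arrays. Of 11 alveolar macrophage markers, 11 were above it on all lavage arrays of both groups and 4 on all RAW264.7 arrays. Of the 11, limma called 10 higher and 1 lower in control lavage than in unstimulated RAW264.7 cells. The lower one was Fabp4, at 11.67 in control lavage and 13.57 in unstimulated RAW264.7 cells. The exception among the pan-macrophage markers was the integrin gene Itgam, which lay below the 40th percentile on the lavage arrays. Lavage arrays also carried genes listed as markers of other cells, and which cells expressed them was not tested. The summed intensity of 10 lung epithelial markers was 31236 to 40931 on pregnant arrays and 26834 to 36386 on control arrays, and that of 8 neutrophil markers was 7595 to 12328 on pregnant arrays and 7563 to 21924 on control arrays. Krt19, Scgb1a1 and Cdh1 had the highest levels of the epithelial markers and so weigh most in that sum. Their means were 13.80, 12.98 and 11.84 on pregnant arrays and 13.64, 13.02 and 12.15 on control arrays. Of the 10 epithelial markers only Scgb1a1 and Cdh1 had lower means on pregnant arrays. The list median of the log2 change in pregnancy was 0.55, against 0.03 for all genes. By limma 0 of the 10 were called, and 3 had an unadjusted p under 0.05, against 9.38% of all genes. Sftpc was at 11.68 on pregnant and 10.66 on control arrays, and Epcam at 11.42 and 10.54. In bulk samples such as these, fewer cells of a type and less RNA per cell cannot be told apart. Some signs of RNA quality moved with estradiol in RAW264.7 cells. The 3' minus 5' difference (log2) of actin was 0.48, 0.74 and 0.46 on the estradiol arrays and 0.43, 0.39 and 0.40 on the unstimulated arrays, and that of pyruvate carboxylase 2.08, 2.51 and 2.30 and 2.005, 1.66 and 1.89. All estradiol arrays were above all unstimulated ones for both controls, and their part in the estradiol changes was not tested. For Gapdh the groups overlapped, at 0.345, 0.472 and 0.339 on estradiol and 0.362, 0.292 and 0.307 on unstimulated arrays. They overlapped for the transferrin receptor too. Estradiol replicate 2 was the farthest out. Its 3' minus 5' difference for the transferrin receptor was 4.31 (log2), against 3.16 and 3.43 on the other estradiol arrays and 3.20 to 3.32 on the unstimulated arrays. Within RAW264.7 cells some sums of genes listed as markers of other leukocytes moved with estradiol. The sum of 8 monocyte and dendritic cell markers was 2613 to 2924 on estradiol arrays and 1867 to 1926 on unstimulated arrays, with 2 called higher. That of the neutrophil markers was 722 to 740 and 482 to 527, with 1 called higher. That of 10 T cell markers was 7724 to 8200 and 10142 to 10461, with 1 called lower. Of all genes 6.75% were called higher and 4.66% lower. The list medians of the log2 change were 0.09, -0.04 and 0.07, so the neutrophil and T cell sums moved against their medians. The neutrophil sum followed S100a8 (mean 8.31 with estradiol, 6.58 without). The T cell sum followed Cd28 (10.20 and 11.35) and Il7r (12.62 and 12.84). On all unstimulated arrays 7 of 8 neutrophil and 8 of 10 T cell markers lay below the 40th percentile. The part of these sums in the results below was not tested.

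Estradiol was followed by higher Stab1 and Gas6 and lower Scarb1 in RAW264.7 cells. Stab1, encoding stabilin-1, a receptor for oxidised lipoproteins and extracellular matrix fragments that also takes up apoptotic cells, rose 3.12-fold. Gas6, the vitamin K-dependent ligand of the TAM receptors, rose 1.37-fold. Scarb1, encoding SR-BI, the receptor that exchanges cholesterol with high-density lipoprotein and binds phosphatidylserine, was 1.32-fold lower. The other 7 genes did not pass the test, so 3 of 10 were called (limma, adjusted p under 0.05) where 11.4% of all genes were, with 2 higher (6.75% of all genes) and 1 lower (4.66%). Of the 10 genes 5 had an unadjusted p under 0.05, and of all genes 26.9%. The groups did not overlap for 6 of the 10 genes, and for 34.8% of all genes. The median log2 change of the 10 genes was 0.05, and that of all genes 0.02. The 3' minus 5' differences of actin and pyruvate carboxylase given above were higher on every estradiol array as well. Those of Gapdh and the transferrin receptor overlapped between the groups.

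Pregnancy left no called difference in these genes between pregnant and control lavage macrophages. Of the 10 genes 0 passed in limma, as did 0% of all genes, and on the probe sets that stand for the genes 0 of the 10 had an unadjusted p under 0.05, against 9.38% of all genes. On 2 further probe sets of Msr1 the unadjusted p was 0.0381 and 0.00881. On the probe sets that stand for the genes, the groups did not overlap for 1 gene, Axl, and for 15.7% of all genes. The median log2 change was 0.00 for the 10 genes and 0.03 for all genes.

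Between the sources, untreated on both sides, control lavage cells had far higher Mertk, Axl and Marco and lower Gas6, Mfge8 and Msr1 than unstimulated RAW264.7 cells. Of the 10 genes 3 were called higher and 3 lower by limma, against 27.9% and 34% of all genes, so the share called, 6 of 10, lay near the 61.9% of all genes. Groups did not overlap for 7 of the 10 genes and 69.9% of all genes. Source, culture and handling cannot be told apart in this comparison. It shares its unstimulated arrays with the estradiol comparison and its control arrays with the pregnancy comparison.

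**Figure D1:**
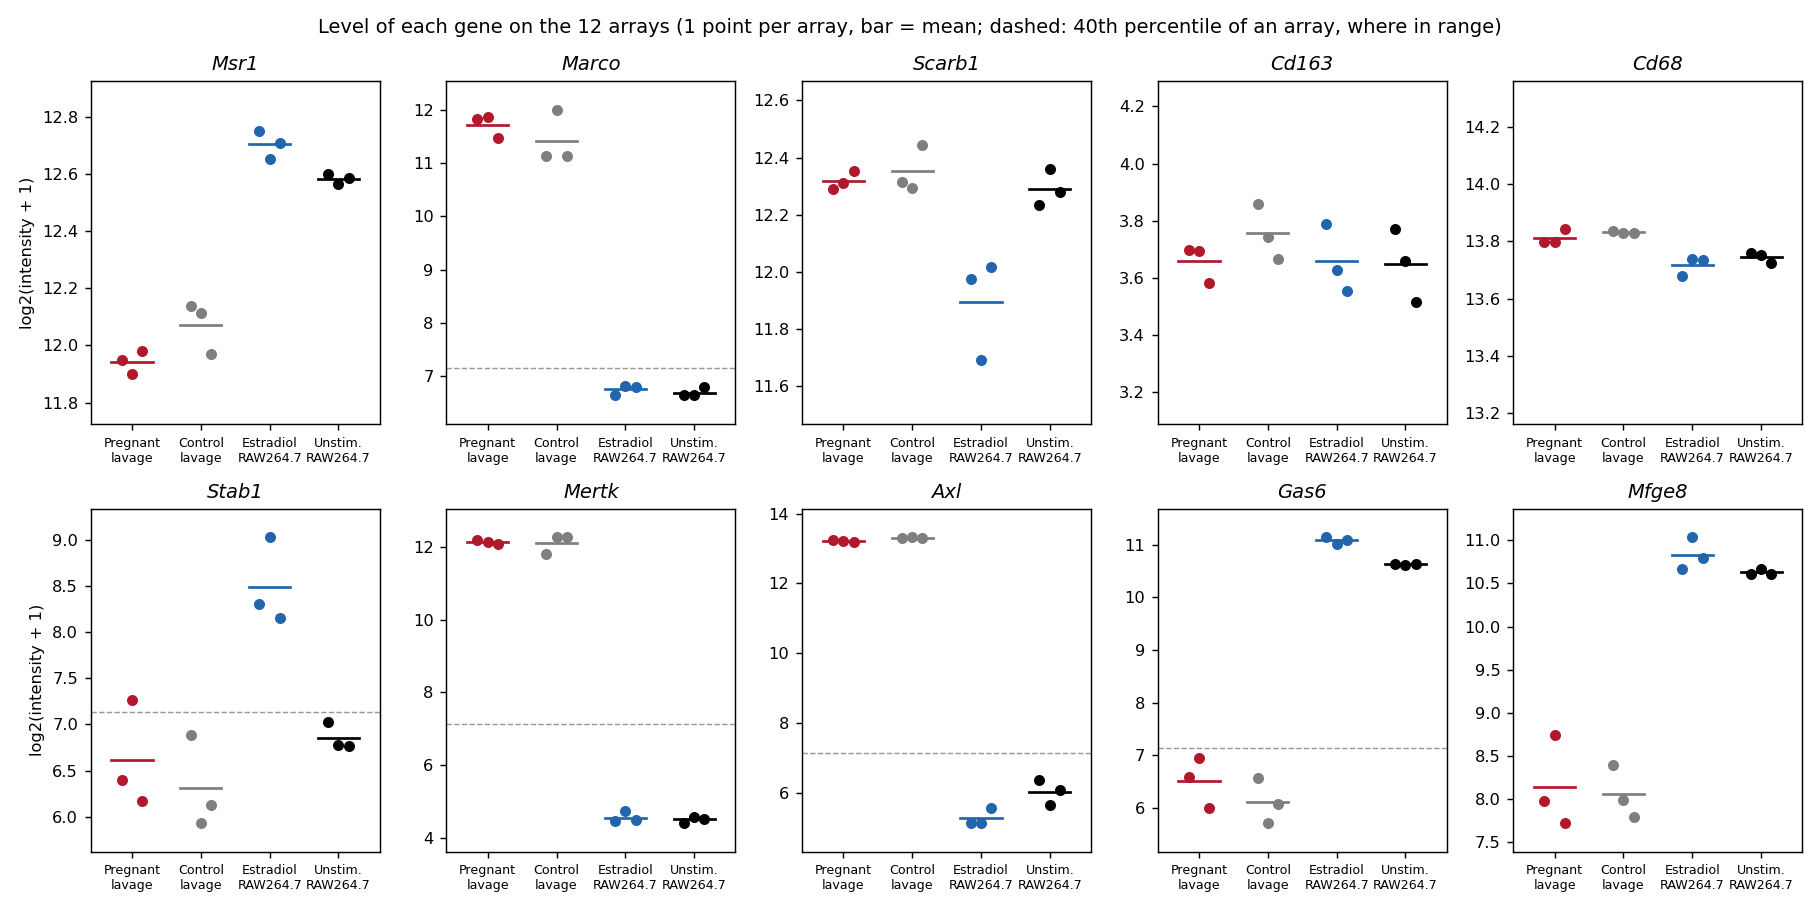
Level of each gene as log2(intensity + 1) on the y axis of its own panel, with 1 point per array and a bar at the group mean for pregnant and control lavage cells and for estradiol and unstimulated RAW264.7 cells; the dashed line is the 40th percentile where it falls in range. Mertk and Axl sit above 11.8 on all 6 lavage arrays and below 6.4 on all 6 RAW264.7 arrays, and Stab1 is highest on the 3 estradiol arrays.

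Msr1 encodes the class A scavenger receptor SR-A, which takes up acetylated and oxidised low-density lipoprotein and bacteria. Its level was 12.75, 12.65 and 12.71 on estradiol arrays, against 12.60, 12.57 and 12.58 on unstimulated arrays. The groups stood apart by a small step, 0.12 ± 0.05 (SE, log2), that did not pass (limma adjusted p = 0.172). The other 3 Msr1 probe sets had log2 changes of -0.09 to 0.10, so they did not share a direction. In lavage cells Msr1 was at 11.95, 11.90 and 11.98 in pregnant samples, against 12.14, 12.11 and 11.97 in control samples. These ranges overlap, and the change of -0.13 ± 0.07 did not pass (limma adjusted p = 0.602). The other 3 probe sets were also lower in pregnancy, by -0.15 to -0.26 in log2, with limma adjusted p over all probe sets of 0.429 to 0.704. On 2 of them the groups did not overlap, with 10.78, 10.70 and 10.82 in pregnant against 10.94, 11.09 and 11.06 in control samples on one, and 10.83, 10.73 and 10.96 against 11.01, 11.19 and 11.01 on the other. Control lavage cells were lower than unstimulated RAW264.7 cells by 0.51 ± 0.06 in log2 (limma adjusted p = 0.000341), and by 0.89, 0.96 and 1.04 on the other 3 probe sets. On the probe set that stands for the gene, the 4 group means order as estradiol RAW264.7, unstimulated RAW264.7, control lavage and pregnant lavage. Neither neighbouring pair within a source passed the test, and the other probe sets did not all share the order of the RAW264.7 groups.

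Marco, a class A receptor with a collagenous stalk, binds unopsonised particles and bacteria and is a classic gene of alveolar macrophages. It stood at 11.83, 11.88 and 11.47 on pregnant arrays and at 11.14, 12.01 and 11.14 on control arrays. The ranges overlapped, with control replicate 2 the highest of all, and the difference of 0.30 ± 0.25 was little larger than its error (limma adjusted p = 0.731; 95% interval -0.31 to 0.90). In RAW264.7 cells Marco was dim, at 6.64, 6.80 and 6.78 with estradiol and 6.64, 6.63 and 6.78 without. The estradiol difference was 0.06 ± 0.07 (limma adjusted p = 0.627). Control lavage cells exceeded unstimulated RAW264.7 cells by 4.75 ± 0.24 in log2, a 26.9-fold difference (limma adjusted p = 6.5e-06), and exceeded the 40th percentile of the unstimulated arrays 21.3-fold.

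Scarb1 was the only gene of this set called lower with estradiol. Its level was 11.97, 11.69 and 12.02 on estradiol arrays, against 12.23, 12.36 and 12.28 on unstimulated arrays. All 3 estradiol values lay below all 3 unstimulated ones, and the lowest was that of estradiol replicate 2, the array farthest out in RNA quality. The log2 change was -0.40 ± 0.09 (limma adjusted p = 0.0392). The other 2 probe sets changed by -0.44 and -0.42 but were not called (limma adjusted p over all probe sets of 0.0722 and 0.0633). Without estradiol replicate 2 the change on the probe set that stands for the gene was -0.30 and kept its call (limma adjusted p = 0.0241). The call ended when unstimulated replicate 1, 2 or 3 or estradiol replicate 1 or 3 was left out (limma adjusted p = 0.0930, 0.137, 0.115, 0.0566 and 0.0531), and with arrays shifted to a common median (0.0503). In lavage cells Scarb1 was at 12.29, 12.31 and 12.35 in pregnant samples and 12.32, 12.29 and 12.44 in control samples. That difference was -0.03 ± 0.07 (limma adjusted p = 0.899; 95% interval -0.19 to 0.13). Control lavage and unstimulated RAW264.7 levels differed by 0.06 ± 0.06 (limma adjusted p = 0.433), so the estradiol cells held the lowest of the 4 levels.

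Stab1 showed the largest estradiol change of the 10 genes and lay at the 99.8th percentile of all log2 changes. It was at 8.31, 9.03 and 8.15 on estradiol arrays, against 7.02, 6.78 and 6.76 on unstimulated arrays. Every estradiol array was above every unstimulated one, and estradiol replicate 2 was the highest. The log2 change was 1.64 ± 0.22 (SE; 95% interval 1.12 to 2.16; limma adjusted p = 0.00504). Without estradiol replicate 2 it was 1.37 ± 0.10 (limma adjusted p = 0.00153), and the call held under all 15 alternatives. All 3 unstimulated values lay below the 40th percentile of their arrays, and all 3 estradiol values above it. In lavage cells Stab1 was dim, at 6.40, 7.27 and 6.17 in pregnant samples and 6.88, 5.93 and 6.13 in control samples. The ranges overlapped widely, and the difference was 0.30 ± 0.35 (limma adjusted p = 0.811; 95% interval -0.54 to 1.14). Control lavage minus unstimulated RAW264.7 was -0.54 ± 0.24 (limma adjusted p = 0.0974), and -0.83 ± 0.11 without control replicate 1, when it passed (limma adjusted p = 0.00103).

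Cd68, a lysosomal glycoprotein used as a pan-macrophage marker, varied least. It was at 13.68, 13.74 and 13.74 with estradiol and 13.76, 13.75 and 13.72 without, and at 13.80, 13.80 and 13.84 in pregnant and 13.84, 13.83 and 13.83 in control lavage cells. The changes were -0.03 ± 0.05 with estradiol and -0.02 ± 0.05 in pregnancy (limma adjusted p = 0.751 and 0.937). Control lavage cells were higher than unstimulated RAW264.7 cells by 0.09 ± 0.04, with no overlap but no call (limma adjusted p = 0.115). Cd163, the haemoglobin-haptoglobin scavenger receptor, was dim on every array. Its 12 values ran between 3.52 and 3.86 with overlapping groups, and its mean lay below the 5th percentile of the arrays in each group. Its changes, 0.01 ± 0.09 with estradiol and -0.10 ± 0.08 in pregnancy, did not pass (limma adjusted p = 0.963 and 0.701), and at this signal no level of Cd163 can be read.

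The TAM receptors Mertk and Axl and their ligand Gas6 divided by source. The promoter windows of 4 genes are shown, because these genes carried the differences. They are Mertk and Axl, high in lavage cells, and Gas6 and Stab1, the pair called higher with estradiol. Each window runs from 250 bases before to 50 after a RefSeq start (GRCm38.p6), 5′ to 3′ on the gene's strand.
Mertk (chr2:128698665-128698964, plus strand): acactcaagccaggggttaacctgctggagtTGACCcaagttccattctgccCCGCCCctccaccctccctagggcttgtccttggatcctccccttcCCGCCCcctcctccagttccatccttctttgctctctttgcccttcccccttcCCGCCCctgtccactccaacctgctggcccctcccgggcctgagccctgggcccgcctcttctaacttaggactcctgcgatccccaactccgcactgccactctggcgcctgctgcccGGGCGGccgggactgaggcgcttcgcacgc
Axl (chr7:25788684-25788983, minus strand): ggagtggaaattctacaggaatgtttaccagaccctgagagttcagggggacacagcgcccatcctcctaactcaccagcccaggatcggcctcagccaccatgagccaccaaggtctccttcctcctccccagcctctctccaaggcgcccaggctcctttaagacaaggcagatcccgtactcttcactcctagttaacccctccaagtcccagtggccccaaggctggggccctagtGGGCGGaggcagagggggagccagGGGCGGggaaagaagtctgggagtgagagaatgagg
Gas6 (chr8:13494486-13494785, minus strand): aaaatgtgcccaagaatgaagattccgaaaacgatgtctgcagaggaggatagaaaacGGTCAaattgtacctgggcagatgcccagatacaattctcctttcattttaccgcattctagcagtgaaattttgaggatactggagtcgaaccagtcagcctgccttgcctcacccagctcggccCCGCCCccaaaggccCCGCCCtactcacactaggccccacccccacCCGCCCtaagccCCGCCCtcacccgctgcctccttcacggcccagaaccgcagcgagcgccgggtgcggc
Stab1 (chr14:31168592-31168891, minus strand): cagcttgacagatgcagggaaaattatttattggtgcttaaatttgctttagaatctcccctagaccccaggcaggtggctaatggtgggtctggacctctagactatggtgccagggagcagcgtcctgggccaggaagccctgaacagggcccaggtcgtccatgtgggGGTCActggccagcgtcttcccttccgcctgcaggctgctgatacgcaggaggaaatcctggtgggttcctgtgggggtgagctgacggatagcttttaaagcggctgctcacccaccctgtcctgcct
Capitals mark matches, on either strand, to GGTCA, the core recognised by many nuclear receptors, and to GGGCGG, the GC box. The full estrogen response element, GGTCA and its reverse complement TGACC with 3 bases between them, would contain the GGTCA core. It was in 0 of the 8 windows matched to the 10 genes (there were windows for all but Msr1 and Scarb1) and in 0.07% of all 32851 windows. GGTCA was in 5 of the 8 windows and in 40.5% of all windows, and GGGCGG in 5 of the 8 and in 35.7%. The AP-1 letters TGANTCA and the ETS core GGAAGT were each in 1 of the 8 windows, that of Cd68, and in 7.81% and 23.8% of all windows. These are matches of letters only.

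Mertk, a TAM kinase that drives engulfment of dying cells, was at 12.19, 12.12 and 12.09 in pregnant lavage samples and 11.81, 12.26 and 12.26 in control samples. Pregnant values lay inside the control range, and the difference was 0.03 ± 0.13 (limma adjusted p = 0.970; 95% interval -0.28 to 0.33). In RAW264.7 cells it was dim, at 4.46, 4.74 and 4.49 with estradiol and 4.41, 4.60 and 4.54 without (0.05 ± 0.09, limma adjusted p = 0.786). The step between the sources was 7.59 ± 0.13 in log2, or 193-fold (limma adjusted p = 7.6e-08). The RAW264.7 side lay below the 40th percentile, and against that percentile control lavage cells were 34.2-fold higher.

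Axl, the TAM kinase that Gas6 binds most tightly, was at 13.25, 13.20 and 13.20 in pregnant samples, against 13.31, 13.32 and 13.30 in control samples. All pregnant values were below all control values, by 0.09 ± 0.05 in log2, which did not pass (limma adjusted p = 0.636). In RAW264.7 cells the level was 5.13, 5.12 and 5.57 with estradiol, against 6.36, 5.64 and 6.07 without. Every estradiol array was below every unstimulated one, but all lay under the 40th percentile and the change of -0.75 ± 0.20 did not pass (limma adjusted p = 0.0600). Without unstimulated replicate 2 it passed (-0.94, limma adjusted p = 0.0350), as it did with a common median (0.0448), with an intensity-dependent robust prior (0.0247) and in 1 fit of all 12 arrays (0.0164). Control lavage cells exceeded unstimulated RAW264.7 cells by 7.29 ± 0.17 in log2, 156-fold (limma adjusted p = 2.4e-07), and exceeded the 40th percentile of those arrays 78.4-fold. The other Axl probe set was dim on all 12 arrays, with group means of 3.19 to 3.32, and showed none of this (-0.05 between the sources), so averaging the probe sets gives a log2 difference of 3.62.

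Gas6 ran the other way between the sources. It was at 11.14, 11.02 and 11.09 in estradiol RAW264.7 cells, against 10.63, 10.62 and 10.64 in unstimulated cells. The unstimulated values were nearly the same (SD 0.01, n = 3) and all estradiol values were above them, giving a log2 change of 0.45 ± 0.05 (limma adjusted p = 0.00245). The change was 0.48 without estradiol replicate 2 and was called in each of the 6 fits without 1 array. In 1 fit of all 12 arrays, where the wider spread of the lavage samples entered, its adjusted p was 0.285. In lavage cells Gas6 was dim, at 6.59, 6.95 and 6.004 in pregnant and 6.56, 5.71 and 6.08 in control samples, with overlapping ranges (0.39 ± 0.29, limma adjusted p = 0.694). Control lavage cells were lower than unstimulated RAW264.7 cells by 4.51 ± 0.20 in log2, 22.8-fold (limma adjusted p = 3.7e-06). The unstimulated level was 11.5-fold above the 40th percentile of the control lavage arrays.

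Mfge8, the secreted lactadherin that links phosphatidylserine to alpha v integrins, was at 10.67, 11.04 and 10.79 with estradiol, against 10.61, 10.67 and 10.61 without. The groups only just failed to touch, and the change of 0.20 ± 0.09 did not pass (limma adjusted p = 0.220). It was 0.10 without estradiol replicate 2, the highest of the 3. In lavage cells Mfge8 was at 7.97, 8.74 and 7.72 in pregnant and 8.40, 7.99 and 7.79 in control samples, again overlapping (0.09 ± 0.28, limma adjusted p = 0.945). Control lavage cells were 5.95-fold lower than unstimulated RAW264.7 cells (-2.57 ± 0.15 in log2, limma adjusted p = 1.3e-05).

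Stab1, Gas6 and Mfge8 shared their high arrays among the lavage samples. Pregnant replicate 2 was the highest pregnant array for all 3 genes, and control replicate 1 the highest control array. Pregnant replicate 2 also had the highest summed intensity of lung epithelial markers (40931, against 36230 and 31236 on the other pregnant arrays). Its sum of 2 red cell markers was 2902 (370 and 700 on the others). That sum followed Alas2 alone. The haemoglobin gene Hba-a1 lay below the 40th percentile on all arrays, with means of 4.51 on pregnant and 4.50 on control arrays. Pregnant replicate 2 further had the widest 3' minus 5' difference of the transferrin receptor (3.86, against 2.83 and 3.47). Control replicate 1 had the highest control sums of lung epithelial markers (36386, against 26834 and 31343), of neutrophil markers (21924, against 7982 and 7563) and of monocyte and dendritic cell markers (2494, against 1452 and 1368). Both arrays also had the widest 3' minus 5' difference of pyruvate carboxylase in their group (2.47 against 1.85 and 1.54 in pregnant, and 1.85 against 1.42 and 1.40 in control samples). On the other controls control replicate 1 was not the widest of its group. Its difference was 0.26 against 0.35 and 0.28 for actin, and 0.340 against 0.386 and 0.325 for Gapdh. For the transferrin receptor it was 3.21 against 3.38 and 2.84. The part of these sums and differences in the levels of these genes was not tested. In RAW264.7 cells the summed lung epithelial markers were 419 to 457 on estradiol arrays and 421 to 522 on unstimulated arrays, with 0 of 10 above the 40th percentile on all arrays of either group.

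**Figure D2:**
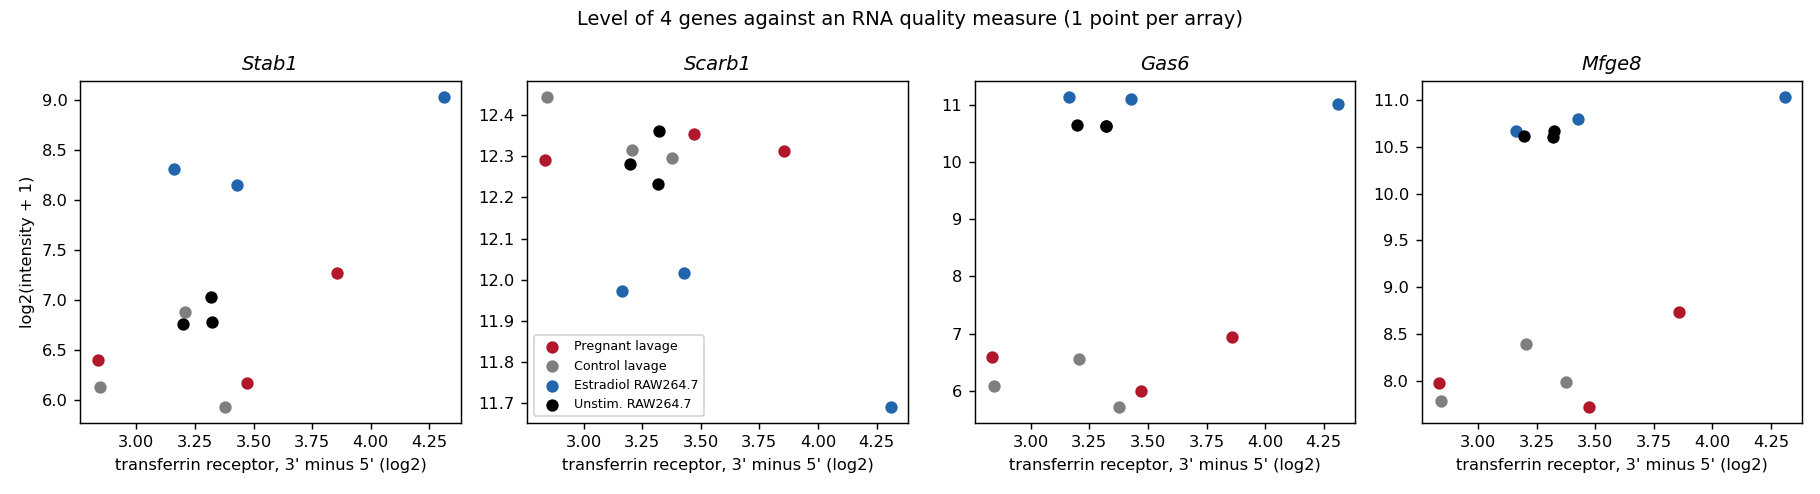
Level of Stab1, Scarb1, Gas6 and Mfge8 as log2(intensity + 1) against the 3' minus 5' difference of the transferrin receptor control (log2), 1 point per array, coloured by group. Estradiol replicate 2 is the point at 4.31, with the highest Stab1 and Mfge8 and the lowest Scarb1 of all arrays, and the other 2 estradiol arrays, at 3.16 and 3.43, lie apart from the unstimulated ones in level for Stab1, Scarb1 and Gas6. On the actin and pyruvate carboxylase controls, not plotted, all 3 estradiol arrays lie above the unstimulated ones. On the Gapdh control, also not plotted, the groups overlap.

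The pregnancy change minus the estradiol change was tested in 1 fit of all 12 arrays, and limma called 0 of the 10 genes, where 4.43% of all genes were called. Unadjusted p was under 0.05 for 4 of them and for 19.3% of all genes. The difference was -1.34 ± 0.46 for Stab1, which was 0.30 higher in pregnant samples and 1.64 higher with estradiol (limma adjusted p = 0.137). It was 0.36 ± 0.12 for Scarb1, 0.66 ± 0.23 for Axl and -0.25 ± 0.08 for Msr1 (limma adjusted p = 0.119, 0.146 and 0.114). The Axl difference passed without unstimulated replicate 2 (0.85, limma adjusted p = 0.0424).

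**Figure D3:**
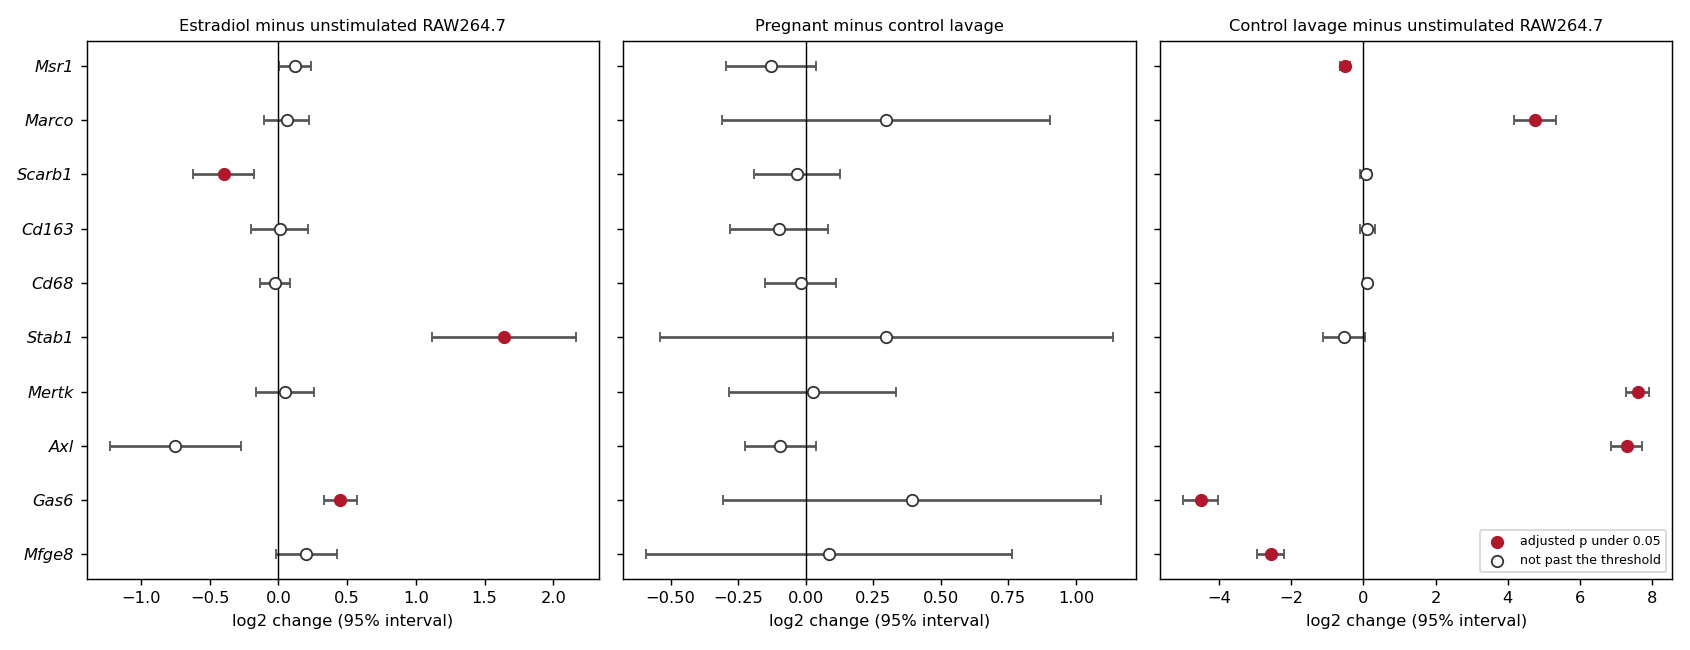
Log2 change of each gene with its 95% interval in the 3 comparisons, with filled points for an adjusted p under 0.05. With estradiol the filled points are Stab1 and Gas6, right of 0, and Scarb1, left of 0. The intervals of all 10 genes include 0 in pregnancy, and the source differences reach 7.59 for Mertk.

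Other genes of scavenging and apoptotic cell uptake were read from 5 lists. Their estradiol counts are to be read against 11.4% of all genes called, 6.75% higher and 4.66% lower. Of 14 other scavenger receptors 2 rose and 1 fell with estradiol, with a median log2 change of 0.05. Mrc1, the mannose receptor, rose by 0.71 ± 0.07 (limma adjusted p = 0.00164) and Cxcl16, a membrane chemokine that binds phosphatidylserine and oxidised lipoprotein, by 0.34 ± 0.04 (0.00445). Cd36, a class B receptor for oxidised lipoproteins and fatty acids, fell by 0.52 ± 0.12 (0.0376). Cd36 lost its call when unstimulated replicate 1, 2 or 3 or estradiol replicate 3 was left out (0.0930, 0.131, 0.115 and 0.0694) and when its probe sets were averaged (0.0547).

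Of 22 other uptake receptors and bridging proteins 4 rose and 2 fell with estradiol, with a median of 0.00. Pros1, protein S, the ligand of Tyro3 and Mertk, was at 11.92 ± 0.08 in estradiol cells and 11.35 ± 0.09 in unstimulated cells (SD, n = 3 each), a rise of 0.57 ± 0.07 (SE, limma adjusted p = 0.00314). Of the alpha v integrin chains, Itgb5 rose by 0.59 ± 0.11 (limma adjusted p = 0.0176) and Itgav by 0.35 ± 0.05 (0.00539), while Itgb3, dim on all arrays, was not called (0.05, 0.605). The Itgb5 call ended without unstimulated replicate 1, 2 or 3 (0.0709, 0.0679 and 0.0550). Havcr2, TIM-3, which binds phosphatidylserine, fell by 0.65 ± 0.07 (limma adjusted p = 0.00212), and dim C1qa, a chain of the complement opsonin C1q, by 0.48 ± 0.08 (0.0116). The C1qa call ended without unstimulated replicate 3 (0.0545) and in the fit of all 12 arrays (0.575), where that of Cxcl16 ended too (0.391). Tyro3, the remaining TAM receptor, was at 7.33 ± 0.09 in estradiol cells and 7.19 ± 0.08 in unstimulated cells, a difference of 0.14 ± 0.07 that did not pass (limma adjusted p = 0.227).

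The estradiol counts of the other 3 lists stand beside the same shares of all genes, 6.75% higher and 4.66% lower. Of 17 engulfment genes 0 rose and 1 fell, the cholesterol exporter Abca1 (-0.71 ± 0.07, limma adjusted p = 0.00136), with a median of -0.01. Of 9 nuclear receptors and other factors 1 rose and 1 fell, the dim orphan receptor Nr4a1 (0.88 ± 0.07, limma adjusted p = 0.000489) and the transcription factor Tfec (-0.35 ± 0.07, 0.0243), with a median of 0.03. Of 12 genes of TAM receptor signalling and shedding 1 rose and 0 fell, with a median of 0.08. It was Adam17, the protease that sheds Mertk and other surface proteins (0.27 ± 0.05, limma adjusted p = 0.0245). The Adam17 call ended without any 1 of the 3 unstimulated replicates (0.0775, 0.104 and 0.0837), without estradiol replicate 1 (0.0539), with a common median (0.0552) and when its probe sets were averaged (0.385). That of Tfec ended without unstimulated replicate 2 or 3 or estradiol replicate 3 (0.0986, 0.0935 and 0.0814).

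In pregnancy limma called 0 genes of these 5 lists, with 1, 1, 0, 1 and 1 at an unadjusted p under 0.05 in the order given above. Of all genes 0% were called, and 9.38% had an unadjusted p under 0.05. List medians ran from -0.06 to 0.06, against 0.03 for all genes. Pros1 was at 13.35 ± 0.04 in pregnant and 13.44 ± 0.04 in control lavage cells (SD, n = 3 each).

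**Figure D4:**
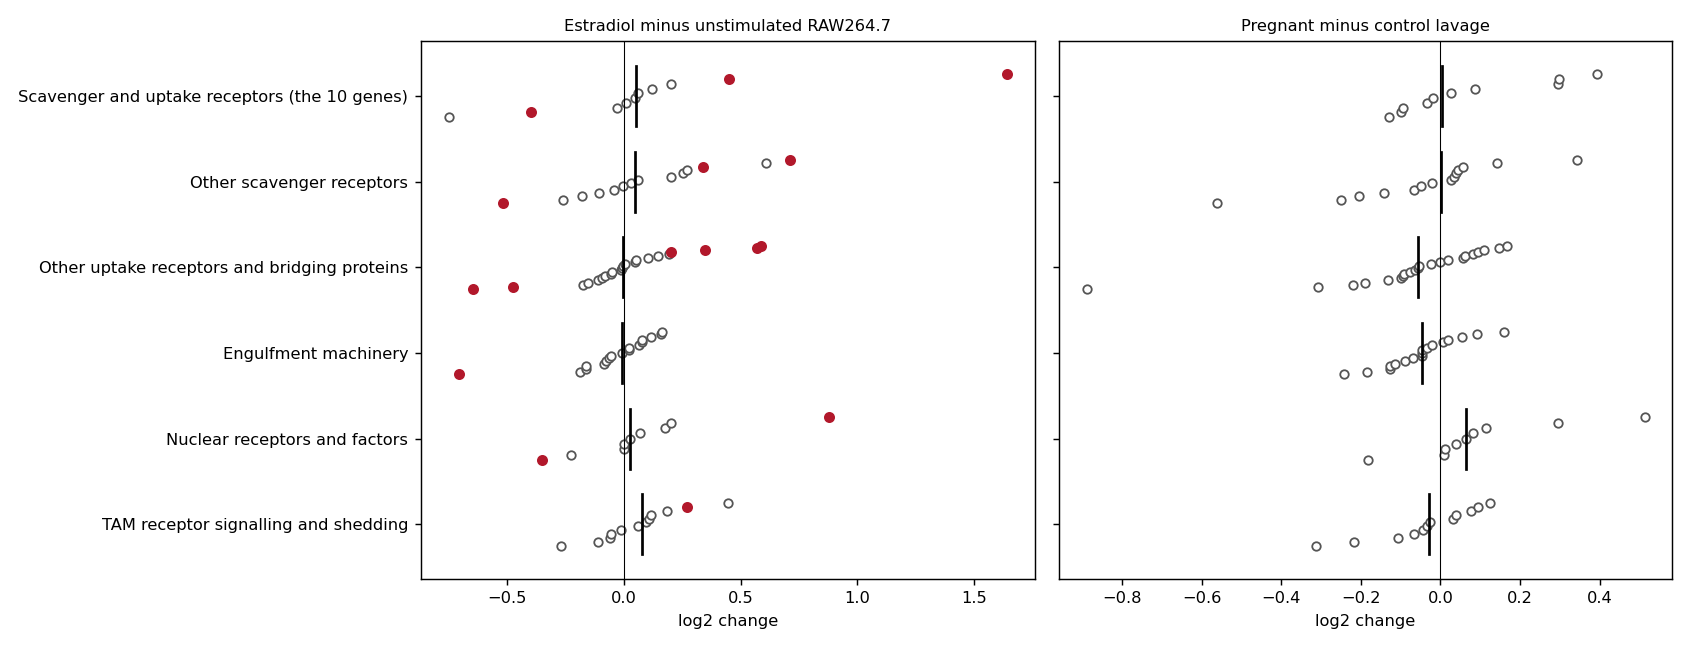
Log2 change of each gene of the 10-gene set and of the 5 lists with estradiol (left) and in pregnancy (right), with filled points for an adjusted p under 0.05 and a black bar at the list median. Stab1 at 1.64 is the farthest point on the left, and no point on the right is filled.

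Between the sources limma called 61.9% of all genes, 27.9% higher and 34% lower in control lavage cells, and the counts of the lists are to be read against these shares. Among scavenger receptors control lavage cells were higher in Olr1, the oxidised lipoprotein receptor LOX-1 (7.75 ± 0.12 in log2, and 5.04 against the 40th percentile of the RAW264.7 arrays), in Mrc1 (5.53 ± 0.06) and in Ager, the receptor for glycation end products (1.75 ± 0.42), and lower in Colec12 (-2.19 ± 0.14), Cd5l (-1.24 ± 0.07) and Stab2 (-0.79 ± 0.14). Here 6 of 14 were called higher and 4 lower. Of the 22 uptake genes 8 were higher, among them the phosphatidylserine receptor Cd300lf (4.40 ± 0.10), Itgb5 (3.53 ± 0.07) and C1qb (4.94 ± 0.42, but 2.21 against the 40th percentile of the RAW264.7 arrays), and 5 lower, led by the bridging protein Edil3 (-4.87 ± 0.11), Cd14 (-1.43 ± 0.06) and Trem2 (-1.31 ± 0.05). Pros1 was 4.26-fold higher in control lavage cells, opposite to Gas6. The limma adjusted p of these 13 genes was at most 0.0109, and Cd5l and Stab2 were dim. Olr1, C1qb, Pparg and Nr4a1 lay below the 40th percentile on all RAW264.7 arrays, and Edil3 and Src on all lavage arrays, so their differences depend on the background there.

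Of the 17 engulfment genes 10 were higher in control lavage cells, led by Map1lc3a (1.83 ± 0.10), Elmo2 (1.72 ± 0.10) and Abca7 (0.99 ± 0.09), and 3 lower, Src (-3.34 ± 0.19), Rac2 (-0.36 ± 0.05) and Elmo1 (-0.34 ± 0.08). Of the 9 nuclear receptors and factors 6 were higher and 0 lower. Pparg, the lipid-sensing receptor needed for alveolar macrophage development, was higher by 6.22 ± 0.07 (5.56 against the 40th percentile of the RAW264.7 arrays), Rxra by 2.61 ± 0.06 and Nr4a1 by 2.78 ± 0.25 (1.52 against that percentile). Of the 12 TAM signalling and shedding genes 5 were higher, led by Socs3 (1.95 ± 0.32), Plcg2 (0.75 ± 0.06) and Pik3r1 (0.41 ± 0.06), and 4 lower, led by Ifnar1 (-0.50 ± 0.04), dim Socs1 (-0.32 ± 0.08) and Adam17 (-0.26 ± 0.06). Leaving out unstimulated replicate 2 ended the call of Socs1 (0.0525), and that of Pik3r1 ended in the fit of all 12 arrays (0.0731) and when its probe sets were averaged, where its sign turned (-0.06).

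Over the 12 arrays, the genes whose levels ran most like each receptor were named as a description. Where a gene differed between the sources, that difference sets much of the likeness, and all points share the 12 arrays. For Mertk they were Flvcr2 and Cd22 (Pearson r = 0.9997 and 0.9996), for Axl Smpdl3a and Ear3 (0.9988 and 0.9987), for Marco Pex11a and Il1a (0.997 and 0.996), for Gas6 Tfrc and Cth (0.998 and 0.997) and for Mfge8 Depdc7 and Prnp (0.997 and 0.996). For Msr1 they were Zdhhc20 and Rbpj (0.993 and 0.992). The likeness was lower for the other 4 genes, with Gstt1 and Slc25a33 for Stab1 (0.971 and 0.964), Osgep and Pld4 for Cd68 (0.968 and 0.964), Tmem218 and Sp100 for Scarb1 (0.942 and 0.938) and Slc25a35 and Cdo1 for dim Cd163 (0.818 and 0.800).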

How the data were processed

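The deposited values are 1 linear intensity per probe set and array (6.51 to 28506), made by the authors with RMA per the submitters' processing notes; the version and genome build are not given in the sources used here. Of 22690 probe sets, 64 controls, 691 with several symbols and 1555 with none were not used. Gene names came from the platform annotation supplied. No symbol was replaced, and 29 Entrez IDs had no match. A gene's probe set with the highest mean was kept, which left 12393 genes. No 2 arrays were identical. Values were tested as log2(value + 1) in R 4.3.3 by lmFit and eBayes of limma 3.58.1 (two-sided), on the 6 arrays compared, or all 12 for the difference of changes. Benjamini-Hochberg adjustment of p-values ran over all 12393 genes, and adjusted p under 0.05 was a call. The fits were tested on simulated data. Named genes are the 10 members, up to 3 called rises and 3 falls of each list per comparison, and the 2 nearest genes of each member. Tyro3 and Itgb3, and Pros1 and Itgam in further comparisons, were named after their values were seen. Alternatives were 2 normalizations, a filter on dim genes, mean and separate probe sets, another prior, array weights, no pseudocount, all 12 arrays and each array left out. The genes and lists were chosen with earlier results of these data known. Replicate numbers follow deposit order. Other tools were Python 3.11.15 and the R package data.table (1.17.8), and pandas 2.3.3, numpy 2.4.6 and matplotlib 3.10.9. Promoter windows are from RefSeq (GRCm38.p6).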

Additional observations from a re-analysis of the deposited data

Results flagged for a closer look

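The pregnancy change differed from the estradiol change, by limma's test of the difference in 1 fit of all 12 arrays, for 5 genes of the lists and for none of the 10 receptors and ligands, where 4.43% of all genes were called. The lists held 14, 22, 17, 9 and 12 measured genes. The pregnancy change minus the estradiol change was -0.66 ± 0.09 (SE, log2) for the TAM ligand Pros1 (adjusted p = 0.00225) and -0.69 ± 0.10 for the mannose receptor Mrc1 (0.00526). It was -0.44 ± 0.08 for the integrin chain Itgav (0.00905). It was 0.74 ± 0.12 for the phosphatidylserine receptor Havcr2 (0.00707) and 0.74 ± 0.13 for the sterol-sensing receptor Nr1h3 (0.0103). Nr1h3 was 0.51 ± 0.09 higher in pregnant samples and -0.23 ± 0.08 with estradiol, neither past the threshold alone (adjusted p = 0.396 and 0.135). The Itgav difference did not pass with the mean of its probe sets (-0.30, adjusted p = 0.0581).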

How the results depend on the processing

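With estradiol 3 of the 10 genes were called; the count was 5 with an intensity-dependent robust prior and 5 with array weights, which added Msr1 under both, Axl under the first (adjusted p = 0.0247) and Mfge8 under the second (0.0391), and 2 to 3 with 1 array left out. For the difference of changes it was 0, and 0 to 1 with 1 array left out. In pregnancy it was 0 under every alternative run, and between the sources 6 to 7. Of the values of the 10 genes under the alternatives, 7 estradiol ones lost their call and 7 gained one, 4 source ones and 1 difference gained one, and no called value changed sign. Uncalled values near 0 changed sign 7 times with estradiol, 8 in pregnancy and 16 for the difference, none beyond 0.21. Pik3r1 between the sources turned to -0.056 with the mean of its probe sets. Over all genes, the estradiol count of 1414 was 4010 with array weights, 824 when estradiol replicate 3 was left out, and 681, 637 and 684 when unstimulated replicate 1, 2 or 3 was. The pregnancy count of 0 was 1 with the filter on dim genes, 2 without control replicate 1 and 18 in the fit of all 12 arrays, with 1163 genes at an unadjusted p under 0.05. The count of 549 for the difference was 1394 with array weights, 330 and 280 when estradiol replicate 1 or 3 was left out, and 276, 263 and 272 when unstimulated replicate 1, 2 or 3 was. The cause of these shifts was not tested. No paired analysis was possible because the labels give no replicate numbers shared between groups. The filter on dim genes left 6 of the 10 genes with estradiol, 7 in pregnancy and 8 between the sources; dim levels, such as those of Mertk and Axl in RAW264.7 cells, have no detection calls to bound them.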
